A study of Homo sapiens with 48 samples.

Results

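The genes of plasminogen activation were followed in cells made senescent with doxorubicin: the activators PLAU and PLAT, the receptor PLAUR, and the inhibitory serpins SERPINE2 and SERPINB2. These 5 genes were taken by name from the 48898 Ensembl genes of a table of raw counts. The rule that picks them uses no measured value, although the set was proposed with earlier results of these data known. All 5 passed the filter on low counts in each of the 3 experiments. Messenger RNA was sequenced in 48 libraries, 3 in each of 16 groups. The fibroblasts were IMR-90, a human line from fetal lung, and the tumour cells were the human melanoma line SK-MEL-103. In either line, cells were transfected with a negative control siRNA, siMFN1, siMFN2, both of these (siMFN1+2) or siMAVS the day before doxorubicin, which was given at 200 nM for 48 h and followed by drug-free medium, and RNA was taken on day 7. A proliferating group carried the control siRNA and had no doxorubicin. No group combined siMFN1, siMFN2 or siMAVS with untreated cells, so the effects of these siRNAs were read in doxorubicin-treated cells alone. In a separate IMR-90 experiment, cells on day 7 after the same doxorubicin treatment received DMSO, 20 µM MFI8 or 10 µM BI for 48 h, with RNA taken on day 9, and proliferating cells kept in DMSO served as controls. MFN1 and MFN2 are the mitofusins, which fuse the outer membranes of mitochondria, and MAVS is the antiviral signalling adaptor on that membrane. MFI8 is known as a small-molecule inhibitor of the mitofusins, and BI is given in the labels by this code alone. Each cell type is 1 line, the 2 compounds were given at different doses, and the labels do not say whether the 3 libraries of a group came from separate cultures, so the p-values measure the spread between these libraries, which may be technical.

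Plasmin, a broad protease, is cut from plasminogen by urokinase (the product of PLAU) or by tissue-type plasminogen activator (the product of PLAT). Urokinase acts mostly at the cell surface, where it is held by the receptor encoded by PLAUR, and tissue-type activator is best known for dissolving fibrin. SERPINE2 encodes protease nexin-1, a secreted and matrix-bound inhibitor of thrombin, urokinase, tissue-type activator and plasmin. SERPINB2 encodes plasminogen activator inhibitor 2, much of which stays inside the cell. Activators and inhibitors of this system are among the proteins that senescent fibroblasts are known to secrete.

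Levels are given as CPM, the cpm unit of edgeR, with library sizes scaled by the TMM method. Libraries held 15206115 to 79204217 counts, with those numbered 1 deepest (at least 53390716) and those numbered 3 shallowest (at most 31127306). The members were read deeply enough for counting error to be small: the lowest count in any library was 243 for PLAU, 902 for SERPINB2, 1249 for PLAUR, 2417 for SERPINE2 and 3713 for PLAT. The silenced genes stood lower in every library of their own groups than in any control library. MFN1 was at 5.75 to 15.1 CPM in IMR-90 with siMFN1 or siMFN1+2 against 39.1 to 65.1 in the doxorubicin controls, and at 13.0 to 25.5 against 49.5 to 55.2 in SK-MEL-103. MFN2 was at 17.2 to 21.5 against 156 to 181 CPM in IMR-90 and at 18.8 to 25.6 against 88.5 to 101 in SK-MEL-103, and MAVS was at 40.7 to 51.3 against 108 to 150.1 and at 48.9 to 80 against 160.4 to 175. The 8 fibroblast markers summed to 5944 to 52888 CPM in IMR-90 and to 23.4 to 304 in SK-MEL-103. Among them LUM overlapped between the lines, at 12.3 to 170.3 CPM in IMR-90 and 12.5 to 64.2 in SK-MEL-103. SOX10, a melanocyte lineage factor, stood at 368 to 662 CPM in SK-MEL-103 and at most at 0.304 in IMR-90. The rest of the melanocyte list did not clearly mark SK-MEL-103. MITF was at 6.84 to 12.5 CPM there against 16.2 to 78 in IMR-90, and TYRP1 at up to 0.294 against up to 7.78. PMEL, MLANA and TYR did not pass 0.65 CPM in any SK-MEL-103 library. DCT reached 2.73 CPM in SK-MEL-103 against 0.845 in IMR-90, and S100B 1.24 against 0.0633, all low levels. Markers of leukocytes, endothelium and epithelium summed to at most 6.67, 3.98 and 13.8 CPM in any library.

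Sequence just upstream of a RefSeq transcript start is shown for 3 members. Each start used had at least 2 GENCODE starts of coding transcripts within 50 bases. Each run holds the 250 bases before the start, from RefSeq on GRCh38.p14, 5′ to 3′ on the coding strand, with motif matches in capitals. Both strands were searched for 3 motifs, spelled out where each is first reported. The PLAU window is chr10:73910882-73911131 (plus strand), the PLAUR window is chr19:43670170-43670419 (minus strand), and the SERPINB2 window is chr18:63887455-63887704 (plus strand).
PLAU: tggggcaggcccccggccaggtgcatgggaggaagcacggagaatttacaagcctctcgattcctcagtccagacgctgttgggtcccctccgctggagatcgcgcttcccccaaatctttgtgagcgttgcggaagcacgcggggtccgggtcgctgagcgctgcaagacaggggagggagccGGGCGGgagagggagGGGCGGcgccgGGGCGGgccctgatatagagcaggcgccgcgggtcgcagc
PLAUR: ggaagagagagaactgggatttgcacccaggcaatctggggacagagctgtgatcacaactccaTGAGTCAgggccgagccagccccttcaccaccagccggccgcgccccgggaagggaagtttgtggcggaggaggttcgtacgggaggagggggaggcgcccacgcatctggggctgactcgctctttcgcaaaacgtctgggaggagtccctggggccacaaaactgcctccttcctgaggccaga
SERPINB2: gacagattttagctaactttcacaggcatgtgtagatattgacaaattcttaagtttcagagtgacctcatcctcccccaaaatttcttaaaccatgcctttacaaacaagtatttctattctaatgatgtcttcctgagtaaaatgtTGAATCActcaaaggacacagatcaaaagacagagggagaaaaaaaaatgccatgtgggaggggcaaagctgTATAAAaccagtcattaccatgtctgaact
The PLAU window held 3 GC boxes (GGGCGG, a site class of the Sp1 family), whose first bases lie at -66, -51 and -40 counted from the start, and no AP-1 or TATA match. The PLAUR window held 1 match to the site of the AP-1 factors (TGANTCA), at -186, and no TATA or GC box match. The SERPINB2 window held 1 AP-1 match at -102 and 1 match to the TATA box, which positions the transcription machinery (TATAAA), at -30, and it was poor in G and C (37.2% against 68.8% for PLAU and 63.2% for PLAUR). Over 34788 windows of this length, 6.59% held the AP-1 motif, 10.8% the TATA motif and 42.6% the GC box on at least 1 strand. A match is a string of letters and was not tested as a binding site. The 3 windows lie inside the GENCODE gene spans given next, because other transcripts begin farther upstream. GENCODE starts of 2 of 3 coding transcripts of PLAU, 2 of 11 of PLAUR and 2 of 5 of SERPINB2 lie within 50 bases of the starts used. No window is shown for PLAT or SERPINE2.

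On the GRCh38 gene models of GENCODE 29, PLAU (ENSG00000122861) lies on chromosome 10 at 73909177 to 73917497, PLAUR (ENSG00000011422) on chromosome 19 at 43646095 to 43670547, SERPINE2 (ENSG00000135919) on chromosome 2 at 223975112 to 224039319 and SERPINB2 (ENSG00000197632) on chromosome 18 at 63871692 to 63903890. The identifier of PLAT is ENSG00000104368. PLAU shares 916 exonic bases with C10orf55 on the opposite strand, and SERPINB2 shares 547 exonic bases with its neighbour SERPINB10 on the same strand. The counts listed for these neighbours came to 0.228% of those of PLAU and 0.667% of those of SERPINB2 over all libraries.

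The balance of the 5 genes differed sharply between the lines. Divided by the exonic length of each gene, PLAU was the most abundant member in IMR-90, at 348 ± 59.4 CPM per kb (SD, n = 3) in proliferating control cells, with PLAT at 44.8 ± 18.2, PLAUR at 31.6 ± 7.94, SERPINB2 at 22.9 ± 8.44 and SERPINE2 at 13.0 ± 1.74. In proliferating SK-MEL-103 PLAU was the least abundant, at 7.17 ± 2.92 CPM per kb, below SERPINB2 at 17.9 ± 12.3, PLAT at 24.7 ± 4.21, PLAUR at 28.7 ± 0.703 and SERPINE2 at 36.1 ± 11.8. After doxorubicin PLAU still led in IMR-90 at 597 ± 124 CPM per kb, and PLAT came next at 198 ± 76.5. In SK-MEL-103 after doxorubicin PLAT led at 176 ± 19.2 CPM per kb, while PLAU remained at 6.95 ± 1.5. The doxorubicin-treated melanoma cells thus carried messenger RNA of the tissue-type activator at about the level of the fibroblasts and little of urokinase. Lengths are unions of all annotated exons and may exceed the transcripts in use, so these ratios between genes are approximate.

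**Figure D1:**
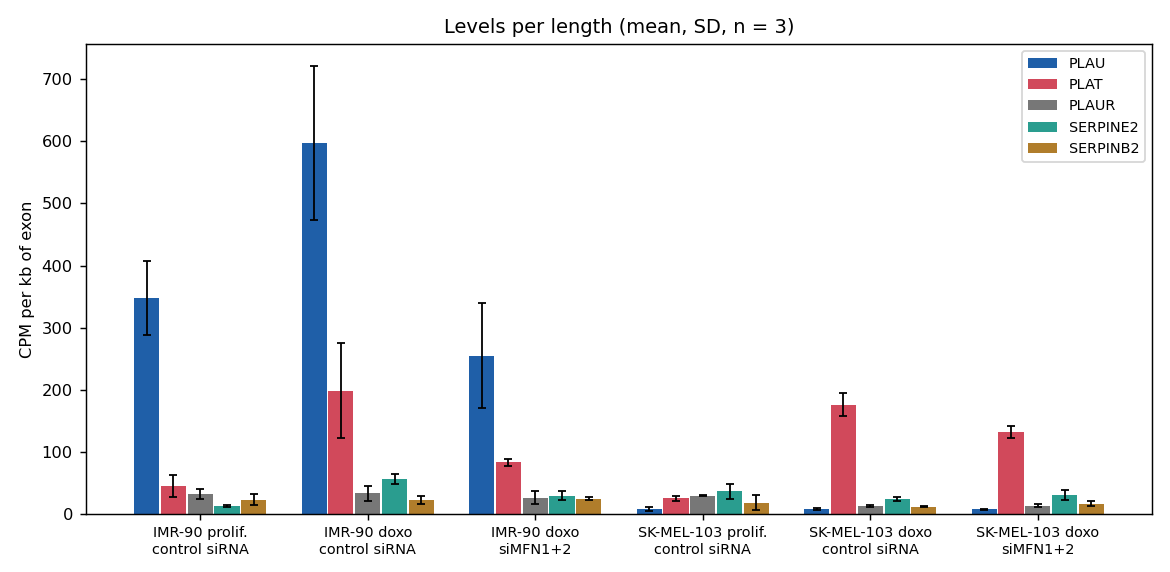
Levels of the 5 genes per length, in CPM per kb of exon on a linear axis from 0, in 6 groups; bars are means and whiskers are SD of 3 libraries. PLAU dominates the IMR-90 groups (348 per kb in proliferating and 597 in doxorubicin-treated cells) and is near the axis in SK-MEL-103, where PLAT is the tallest bar after doxorubicin (176 per kb).

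Between the lines PLAU differed most. In proliferating cells it stood at 13.3, 30.3 and 19.9 CPM in SK-MEL-103 libraries 1, 2 and 3, against 1013, 1209 and 859.7 in IMR-90, with no overlap. It was 47.4-fold lower in SK-MEL-103 (log2 difference -5.57, SE 0.35, edgeR adjusted p = 9.17e-14), and 85.2-fold lower after doxorubicin (-6.41, SE 0.37, adjusted p = 7.52e-15). With the 12 groups of both siRNA experiments in 1 edgeR fit, 3 of the 5 members were called (adjusted p below 0.05) between the proliferating lines, where 51.9% of all genes were called. Between the doxorubicin-treated lines 3 of 5 were called, where 63.4% of all genes were, so neither count sets the members apart. SERPINE2 changed sides. In proliferating cells it was 2.86-fold higher in SK-MEL-103 (1.51, SE 0.27, adjusted p = 2.46e-05), and after doxorubicin it was 2.38-fold lower there (-1.25, SE 0.27, adjusted p = 0.000186). PLAUR did not pass the test between proliferating lines (-0.11, 95% interval -0.74 to 0.52, adjusted p = 0.80) and was 2.61-fold lower in SK-MEL-103 after doxorubicin (-1.38, SE 0.31, adjusted p = 0.000389). PLAT was 1.77-fold lower in proliferating SK-MEL-103 (-0.82, SE 0.22, adjusted p = 0.00213), a call that was lost without proliferating IMR-90 library 2 (-0.44, adjusted p = 0.0738), and did not differ past the threshold after doxorubicin (-0.17, 95% interval -0.61 to 0.27, adjusted p = 0.503). Each line formed an experiment of its own, so line and experiment cannot be told apart in these levels.

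**Figure D2:**
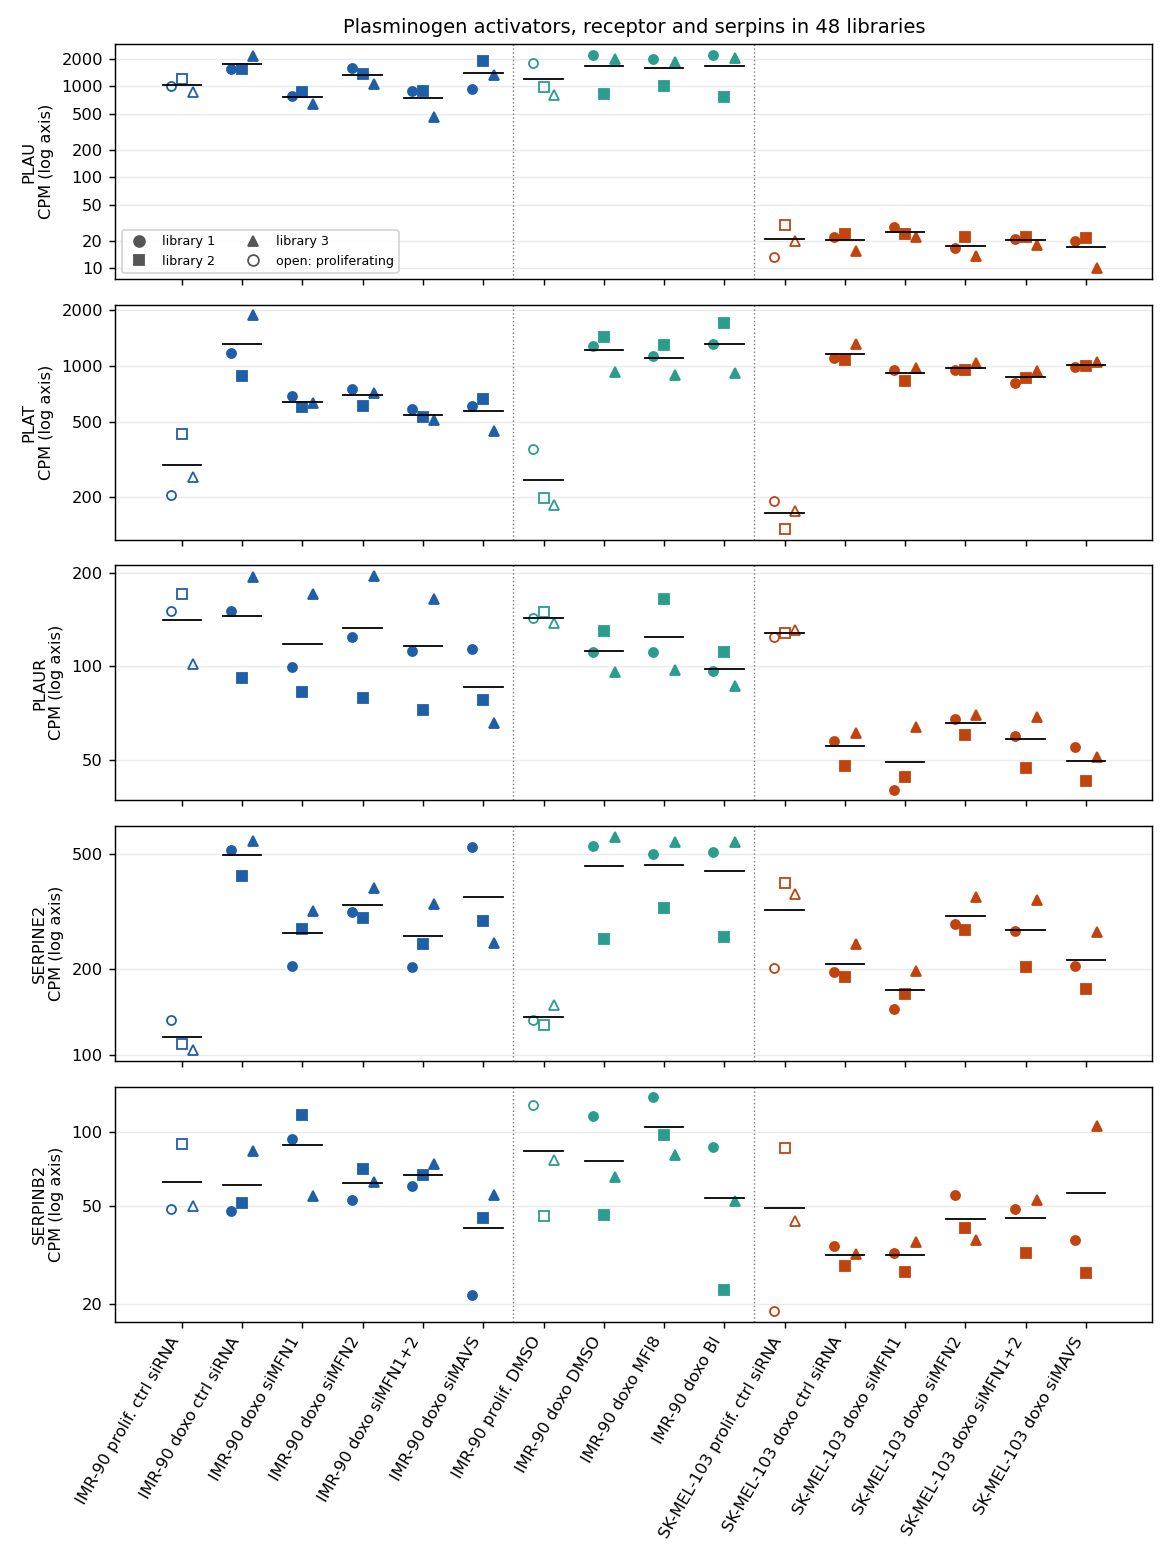
CPM of each gene (log axes, 1 panel per gene) in all 48 libraries; circles, squares and triangles are libraries 1, 2 and 3, open symbols are proliferating cells, the horizontal bar is the group mean, and dotted lines separate the IMR-90 siRNA, IMR-90 compound and SK-MEL-103 siRNA experiments. PLAU stands between 460.4 and 2236 in IMR-90 and between 9.98 and 30.3 in SK-MEL-103, and PLAT is lowest in the 3 proliferating groups.

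PLAT rose with doxorubicin in all 3 experiments. SERPINE2 rose in both IMR-90 experiments and fell in SK-MEL-103, where PLAUR fell as well. In IMR-90 on day 7, 3 of the 5 members rose (PLAU, PLAT and SERPINE2) and none fell, where 27.4% of all genes tested rose and 24.4% fell. In IMR-90 on day 9 in DMSO, 2 of 5 rose (PLAT and SERPINE2) and none fell, where 28.8% rose and 27.1% fell. In SK-MEL-103, 1 of 5 rose (PLAT) and 2 fell (PLAUR and SERPINE2), where 29.8% rose and 30.6% fell. Most genes were called in every experiment (51.8%, 55.9% and 60.4% of those tested, in the same order), so the sizes and directions carry the description, not the number of members called. RNA was pooled from whole cultures, so more RNA per cell and more cells with the RNA cannot be told apart.

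PLAT showed the largest rise of the activators. In IMR-90 on day 7 it stood at 203, 433 and 255 CPM in proliferating libraries 1, 2 and 3 and at 1172, 891 and 1874 after doxorubicin. The groups were well apart, and the gene rose 4.51-fold (log2 change 2.17, SE 0.29, adjusted p = 2.22e-05). In the day 9 experiment it went from 359, 196 and 179.9 to 1278, 1439 and 935 CPM, a 5-fold rise (2.32, SE 0.31, adjusted p = 0.000105). In SK-MEL-103 it went from 189, 134 and 168 to 1101, 1077 and 1308 CPM, a 6.63-fold rise (2.73, SE 0.14, adjusted p = 4.40e-11). PLAT was called in all 3 experiments with any 1 library left out. The rise in SK-MEL-103 exceeded that in IMR-90 by 0.65 (SE 0.30) on the log2 scale, which did not pass the test of the difference (adjusted p = 0.127). That difference was called without proliferating IMR-90 library 1 (0.88, adjusted p = 0.0342) or without doxorubicin-treated IMR-90 library 3 (1.01, adjusted p = 0.0104).

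PLAU, by far the more abundant activator in fibroblasts, moved less. On day 7 it stood at 1013, 1209 and 859.7 CPM in proliferating IMR-90 and at 1557, 1544 and 2185 after doxorubicin. The groups did not overlap, and the gene rose 1.75-fold (0.81, SE 0.28, adjusted p = 0.0265). The call was lost without proliferating library 1 (0.79, adjusted p = 0.0738), without proliferating library 3 (0.68, adjusted p = 0.099) or without doxorubicin library 3 (0.61, adjusted p = 0.112). On day 9 PLAU was at 1818, 990.2 and 806 CPM in proliferating and at 2228, 817 and 1989 CPM in doxorubicin-treated cells, which overlapped (0.49, 95% interval -0.59 to 1.58, adjusted p = 0.408). In SK-MEL-103 it stayed between 13.3 and 30.3 CPM in proliferating and between 15.5 and 23.9 in treated cells (-0.13, 95% interval -0.69 to 0.43, adjusted p = 0.694).

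PLAUR, the receptor, fell in the melanoma line. It stood at 124, 128 and 131 CPM in proliferating SK-MEL-103 and at 57.8, 48.0 and 61.1 after doxorubicin. The groups were clearly apart, and the gene fell 2.46-fold (-1.30, SE 0.17, adjusted p = 4.35e-06). In IMR-90 on day 7 the values were 151, 171 and 102 CPM in proliferating cells and 151, 91.5 and 194 in doxorubicin-treated cells. Treated library 2 was thus lowest and treated library 3 highest (0.08, 95% interval -0.76 to 0.91, edgeR adjusted p = 0.883). On day 9 PLAUR was at 143, 149 and 138 CPM in proliferating and at 111, 130.1 and 95.6 in treated cells, which did not overlap but missed the threshold (-0.34, 95% interval -0.73 to 0.05, adjusted p = 0.121). The change in SK-MEL-103 was lower than that in IMR-90 by 1.28 on the log2 scale (-1.28, SE 0.44, adjusted p = 0.0348), where 22.2% of all genes differed in their doxorubicin effect. That call was lost in 8 of the 12 fits with 1 library left out (-1.51 to -1.00, adjusted p 0.0138 to 0.115 over the 12).

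SERPINE2, the secreted inhibitor, moved in opposite directions in the lines. In IMR-90 it went from 133, 109 and 104 CPM to 516, 419 and 556 on day 7. The groups were far apart, and the gene rose 4.4-fold (2.14, SE 0.27, adjusted p = 1.65e-05). On day 9 it went from 133, 127 and 149 to 535, 254 and 576 CPM, a 3.36-fold rise (1.75, SE 0.36, adjusted p = 0.0019). In SK-MEL-103 it went from 201, 398 and 364 to 194, 187 and 244 CPM. Proliferating library 1 fell among the treated libraries, and the gene fell 1.65-fold (-0.72, SE 0.25, adjusted p = 0.0182). That fall was lost in 4 of 6 fits with 1 library left out: without treated library 1 (-0.66, adjusted p = 0.0615) or 2 (-0.65, adjusted p = 0.0656), and without proliferating library 2 (-0.56, adjusted p = 0.0852) or 3 (-0.61, adjusted p = 0.0679). The difference between the lines was much larger than its error (-2.76, SE 0.38, adjusted p = 7.7e-06) and was called in all 12 fits with 1 library left out.

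SERPINB2, the largely intracellular inhibitor, did not pass the test in any experiment. In IMR-90 on day 7 it stood at 48.8, 89.6 and 50.2 CPM in proliferating and 48.0, 51.3 and 83.6 in doxorubicin-treated cells. These were almost the same 3 values in another order (-0.02, 95% interval -0.75 to 0.71, edgeR adjusted p = 0.969). On day 9 it was at 128, 45.6 and 77.2 CPM in proliferating and 116, 46.0 and 65.7 in treated cells (-0.12, 95% interval -1.24 to 1.00, edgeR adjusted p = 0.846). In SK-MEL-103 the proliferating libraries spread from 18.8 to 85.7 CPM and the treated ones from 28.7 to 34.6 (-0.72, 95% interval -1.69 to 0.25, adjusted p = 0.186). Without proliferating library 1, the lowest, that fall was called (-1.13, adjusted p = 0.0304). The intervals are wide, so a change of up to 1.69 log2 units in SK-MEL-103 lies within them.

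**Figure D3:**
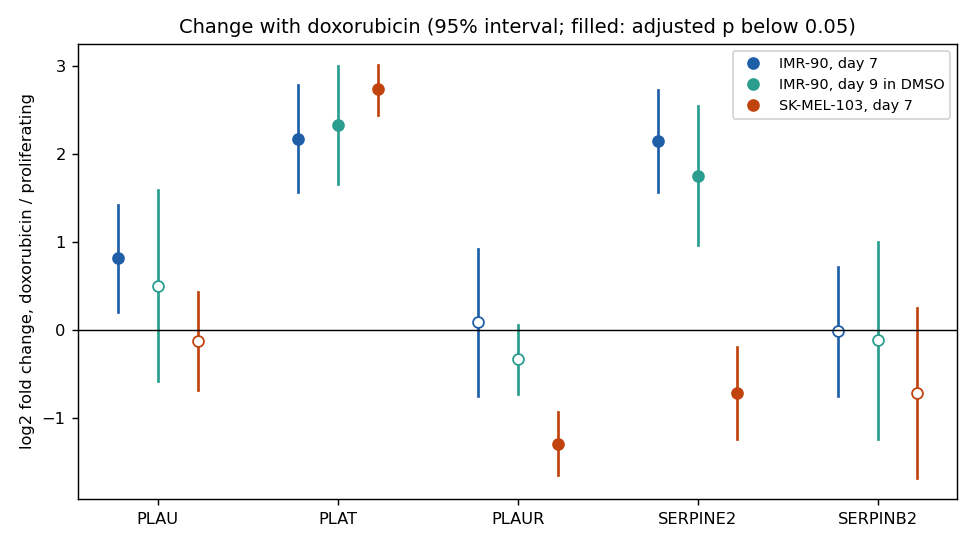
Log2 fold change of each gene with doxorubicin against proliferating cells in the 3 experiments; points are estimates, lines are 95% intervals, and filled points have an edgeR adjusted p below 0.05. PLAT is above 2 in all 3 experiments, and SERPINE2 is at 2.14 and 1.75 in IMR-90 but at -0.72 in SK-MEL-103.

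Another 60 genes of the pathway and of related families were grouped into 6 lists by role. Of these, 19 rose and 8 fell of 50 tested in IMR-90 on day 7. On day 9, 21 rose and 10 fell of 51, and in SK-MEL-103 22 rose and 11 fell of 44. Their median log2 changes were 0.63, 0.53 and 0.57, beside 0.09, 0.10 and 0.03 over all genes tested. The lists differed. On day 7 their medians ran from -0.38 (AP-1 and Ets factors) and -0.36 (plasminogen receptors) to 1.78 (plasminogen and other inhibitors). These counts stand beside 27.4% rising and 24.4% falling over all genes tested on day 7, 28.8% and 27.1% on day 9, and 29.8% and 30.6% in SK-MEL-103. Among the partners and clearance receptors of the urokinase receptor, 9 of 16 rose and 1 fell in IMR-90 on day 7, 10 rose and 1 fell on day 9, and 12 rose and 2 fell in SK-MEL-103. LRP1, the endocytic receptor that clears activator and inhibitor complexes, rose from 401 ± 229 to 1319.8 ± 472 CPM on day 7 in IMR-90 (1.75, SE 0.44, adjusted p = 0.00431). It rose from 326 ± 131 to 1662 ± 270.4 on day 9 (2.36, SE 0.28, adjusted p = 5.18e-05) and from 116 ± 23.6 to 635 ± 78.7 in SK-MEL-103 (2.36, SE 0.21, adjusted p = 5.34e-08). The integrin subunits ITGA5 (1.14, 0.64 and 1.33 in IMR-90 day 7, IMR-90 day 9 and SK-MEL-103), ITGAV (0.79, 1.07 and 0.28) and ITGB5 (0.90, 1.05 and 0.82) were also called in all 3. These 3 subunits fall outside the rule for naming genes and were chosen after their values were seen. LRP8, a lipoprotein receptor of the same family as LRP1, fell in all 3 (-1.68, -1.84 and -2.37). VTN and LRP2 were called as well, but stood below 1 CPM on average in every one of these groups.

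The list of plasminogen and other inhibitors had 2 rises and 0 falls in each of the 3 experiments. PLG, the plasminogen gene itself, was near 0 in every library (at most 0.219 CPM), so the cells held almost no message for the substrate. SERPINI1, neuroserpin, an inhibitor of tissue-type activator, rose from 1.74 ± 0.514 to 20.3 ± 1.91 CPM on day 7 and from 1.60 ± 0.399 to 18.7 ± 2.23 on day 9 in IMR-90 (3.51 and 3.53, adjusted p = 1.72e-06 and 1.14e-06). In SK-MEL-103 it was at 0.692 ± 0.246 and 1.07 ± 0.134 CPM (0.55, adjusted p = 0.122), and the change there was lower than in IMR-90 (-2.87, SE 0.50, adjusted p = 0.000159). Of 4 plasminogen receptors, ENO1, the enolase that also binds plasminogen, fell in all 3 (-1.20, -1.24 and -1.73 in the order IMR-90 day 7, IMR-90 day 9 and SK-MEL-103). FOSL1, which encodes the AP-1 subunit FRA1, fell in all 3 as well (-1.64, -2.01 and -1.05), and JUNB rose in both IMR-90 experiments (1.44 and 1.18) with no call in SK-MEL-103 (-0.11, adjusted p = 0.689). FOS and FOSB were called up in both IMR-90 experiments and down in SK-MEL-103, and FOSL2 the reverse. Of 10 AP-1 and Ets factors, 3 rose and 4 fell on day 7. On day 9, 4 rose and 4 fell, and in SK-MEL-103 2 rose and 4 fell. MMP3, a protease whose precursor plasmin can activate, rose on day 7 in IMR-90 from 4.2 ± 1.36 to 57.8 ± 53.2 CPM (3.80, SE 0.82, adjusted p = 0.00138) and did not pass on day 9 (1.45, adjusted p = 0.154). In SK-MEL-103 MMP3 was at 5.54 ± 9.10 CPM in proliferating and 0.0624 ± 0.0644 in doxorubicin-treated cells, with overlapping groups (-6.28, SE 1.29, edgeR adjusted p = 0.000235).

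Urokinase message stood lower in doxorubicin-treated IMR-90 with siMFN1 or siMFN1+2 than with the control siRNA. PLAU was at 1557, 1544 and 2185 CPM in control libraries 1, 2 and 3, at 793, 879.6 and 637 with siMFN1 and at 897, 896 and 460.4 with siMFN1+2. No library of either siRNA group reached any control library. With siMFN1 PLAU fell 2.29-fold (-1.20, SE 0.29, adjusted p = 0.0496), 1 of 5 members called where 1.58% of all genes were. With siMFN1+2 PLAU fell 2.35-fold (-1.24, SE 0.29, adjusted p = 0.0448) and PLAT 2.41-fold (-1.27, SE 0.28, adjusted p = 0.0378), 2 of 5 members where 1.57% of all genes were called. These calls sit close to the threshold. The siMFN1 call of PLAU was lost with any 1 of the 6 libraries left out (adjusted p 0.06 to 0.215), and the siMFN1+2 calls of PLAU and PLAT were each lost in 5 of 6 (adjusted p up to 0.18 and 0.143). PLAU with these 2 siRNA treatments stood near or below the 859.7 to 1209 CPM of proliferating cells. With siMFN2 PLAU was at 1579, 1379 and 1072 CPM, which overlapped the controls (-0.40, 95% interval -1.01 to 0.20, adjusted p = 0.581), and none of the 5 members was called where 0.278% of all genes were (2 members at an unadjusted p below 0.05, none by DESeq2). With siMAVS none was called by edgeR where 0.634% of all genes were (1 member at an unadjusted p below 0.05), DESeq2 called PLAT (-1.21, adjusted p = 0.00377), and PLAU was at 945, 1902 and 1328 CPM (-0.35, 95% interval -0.96 to 0.25, adjusted p = 0.599). Of all 19077 genes tested, 2569 (siMFN2) and 2875 (siMAVS) had an unadjusted p below 0.05. All 4 siRNA comparisons share the same 3 control libraries.

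PLAT in IMR-90 stood lower with every one of the 4 siRNAs than in any control library. The controls are the same for all 4, so the repeats are not independent, and the share of all genes without overlap is not given. The controls held 1172, 891 and 1874 CPM, against 694, 608 and 633 with siMFN1, 755, 615 and 721 with siMFN2, 589.5, 533 and 517 with siMFN1+2, and 611, 664 and 449 with siMAVS. Apart from siMFN1+2 the changes missed the threshold in edgeR: -1.03 with siMFN1 (SE 0.28, adjusted p = 0.0786), -0.93 with siMFN2 (SE 0.28, adjusted p = 0.164) and -1.21 with siMAVS (SE 0.28, adjusted p = 0.0632). DESeq2 called PLAT with siMFN1 (-1.03, adjusted p = 0.0109) and, as given above, with siMAVS. The description number of siMAVS library 3 is under 50 and that of every other library 3 of this experiment is over 80. What these numbers stand for is not given in the sources used here. With a term for that split in the edgeR fit, PLAT was called with siMAVS (-1.15, adjusted p = 0.048). The shares of all genes called by DESeq2 and by the fit with this term are not given, so these calls do not set PLAT apart. Control library 3 was the highest of all. Without control library 2, the lowest control, the siMFN1 (-1.25, adjusted p = 0.0403) and siMAVS (-1.42, adjusted p = 0.0263) changes were called. In every siRNA group PLAT stayed above the 203 to 433 CPM of proliferating cells.

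SERPINE2 was also lowest with siMFN1 and siMFN1+2 in IMR-90. The controls held 516, 419 and 556 CPM, siMFN1 205, 274 and 318, siMFN2 315, 301 and 383, siMFN1+2 202, 243 and 335, and siMAVS 528, 293 and 246. The mitofusin siRNA groups did not overlap the controls, and siMAVS library 1 did. No change passed the threshold in edgeR: -0.91 with siMFN1 (adjusted p = 0.102), -0.59 with siMFN2 (adjusted p = 0.344), -0.94 with siMFN1+2 (adjusted p = 0.0863) and -0.50 with siMAVS (adjusted p = 0.391), each with SE 0.26. DESeq2 called SERPINE2 with siMFN1 (-0.91, adjusted p = 0.0245) and siMFN1+2 (-0.94, adjusted p = 0.0203). The edgeR fit with the description-number term called it with siMFN1+2 (-0.95, adjusted p = 0.0467). The shares of all genes called by DESeq2 and by that fit are not given, so these calls do not set SERPINE2 apart. PLAUR gave changes of -0.31, -0.15, -0.33 and -0.78 in the same order (adjusted p 0.369 to 0.92), and SERPINB2 gave 0.54, 0.01, 0.14 and -0.60 (adjusted p 0.435 to 0.992). Both genes overlapped the controls in all 4 groups.

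Libraries of the mitofusin siRNA groups in IMR-90 deviated together with the control library of the same number, so the comparison was also fitted with the replicate number as a block. With all groups in the blocked fit the same members were called as without it. With the block and the 6 libraries of each comparison alone, PLAT and SERPINE2 were called with siMFN1 (-0.95 and -0.91, adjusted p = 0.00608 and 0.00208) beside PLAU, PLAT and SERPINE2 with siMFN2 (-0.86 and -0.59, adjusted p = 0.00854 and 0.00447), and PLAUR and SERPINE2 with siMFN1+2 (-0.35 and -0.96, adjusted p = 0.0276 and 0.00157) beside PLAU and PLAT. Those fits called 17.9%, 14.8% and 18% of all genes. PLAT and SERPINE2 were lower than the same-numbered control in 3 of 3 pairs with each of the mitofusin siRNAs. PLAU and PLAUR were so with siMFN1 and siMFN1+2. PLAT, PLAUR and SERPINB2 were also lower by number with siMAVS, but the siMAVS libraries did not deviate together with the same-numbered controls (r = -0.07, 0.46 and -0.43). The siMAVS libraries are therefore not shown to be paired with those controls. The share of all genes lower in 3 of 3 pairs is not given, and every siRNA was set against the same 3 controls. These pair counts therefore do not set the members apart. The 6 libraries without the block gave no member called with any of the 4 siRNAs.

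In doxorubicin-treated SK-MEL-103 none of the 5 members was called by edgeR with any siRNA, where 0.128% (siMFN1), 0.0669% (siMFN2), 0.24% (siMFN1+2) and 0.1% (siMAVS) of all genes were. At an unadjusted p below 0.05, 1 member passed with each mitofusin siRNA and 0 with siMAVS, and DESeq2 called none. Of all 17945 genes tested, 1027 (siMFN1), 615 (siMFN2), 738 (siMFN1+2) and 649 (siMAVS) passed at that unadjusted threshold. PLAT gave the most even pattern: 1101, 1077 and 1308 CPM in the controls, 949, 828 and 976 with siMFN1, 951, 959 and 1041 with siMFN2, 812, 861 and 939 with siMFN1+2, and 995, 1003 and 1053 with siMAVS. The 4 siRNA groups lay below all 3 controls, by small amounts (-0.33, -0.23, -0.39 and -0.16, SE 0.13, adjusted p 0.612 to 1.00). All 4 were set against the same 3 controls, so the repeats are not independent, and the share of all genes without overlap is not given. SERPINE2 was at 194, 187 and 244 CPM in the controls, and at 286, 272 and 355 with siMFN2, higher in every library (0.56, SE 0.25, adjusted p = 1.00), and at 145, 163 and 196 with siMFN1 (-0.30, SE 0.25, adjusted p = 0.935). SERPINB2 in siMAVS library 3 was at 106 CPM, beside 36.3 and 26.8 in the other 2 and 28.7 to 34.6 in the controls (0.87, 95% interval -0.11 to 1.84, adjusted p = 1.00). PLAU stayed at 9.98 to 28.6 CPM and PLAUR at 40.2 to 69.9 CPM in the siRNA groups.

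Here too the numbers paired the libraries, and the block with all groups in the fit called no member. The block in the 6 libraries alone called 3 members with siMFN1: PLAT (-0.32, adjusted p = 0.000406), SERPINE2 (-0.30, adjusted p = 0.000454) and PLAU (0.29, adjusted p = 0.0181). With siMFN2 it called 4: SERPINE2 (0.56, adjusted p = 8.15e-07), SERPINB2 (0.49, adjusted p = 0.000266), PLAUR (0.26, adjusted p = 0.00318) and PLAT (-0.23, adjusted p = 0.0119). With siMFN1+2 it called 3: PLAT (-0.39, adjusted p = 0.000141), SERPINB2 (0.48, adjusted p = 0.000558) and SERPINE2 (0.39, adjusted p = 0.000863). Those fits called 19.0%, 6.79% and 8.49% of all genes, and with siMAVS none of the 5 was called. The title of 1 siMFN2 library carries no number, and it was paired as number 1 because the other 2 carry 2 and 3.

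SERPINE2 gave changes of opposite sign in the lines with siMFN2 (-0.59 in IMR-90 and 0.56 in SK-MEL-103) and siMFN1+2 (-0.94 and 0.42), and of the same sign with siMFN1 (-0.91 and -0.30). No member passed the edgeR test of the difference between lines with any siRNA. For siMFN1+2 the melanoma effect less the fibroblast effect was 1.34 (SE 0.37, adjusted p = 0.177) for SERPINE2, 1.24 (SE 0.42, adjusted p = 0.314) for PLAU and 0.86 (SE 0.30, adjusted p = 0.348) for PLAT. For siMFN1 it was 1.48 (SE 0.41, adjusted p = 0.172) for PLAU, which was called with a replicate block in the fit (1.55, adjusted p = 0.0343) and by DESeq2 (1.49, adjusted p = 0.0435). The shares of all genes called were 0.153% (siMFN1), 0.0431% (siMFN2), 0.144% (siMFN1+2) and 0.0431% (siMAVS), and 0 of 5 members was called in each. At an unadjusted p below 0.05, 2 members passed for siMFN1, 2 for siMFN2, 3 for siMFN1+2 and 2 for siMAVS. Of all 20892 genes tested, 1931, 1295, 1854 and 1610 passed in the same order. DESeq2 called no member for the other 3.

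**Figure D4:**
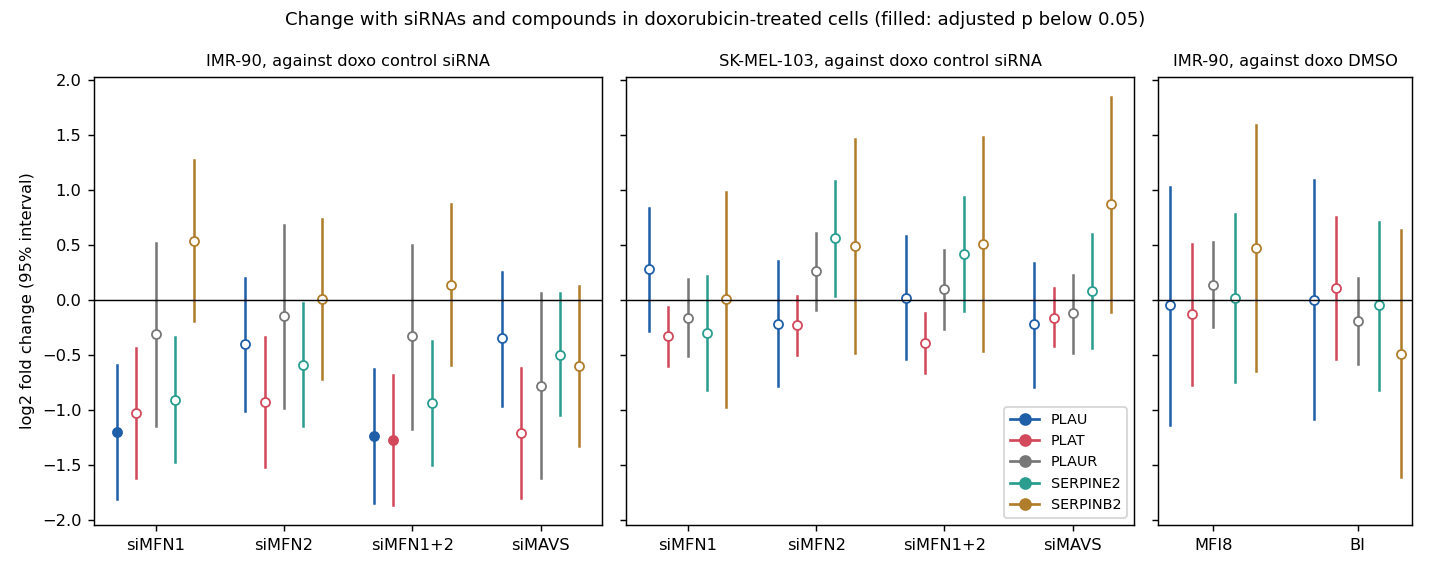
Log2 fold change of each gene in doxorubicin-treated cells with siRNAs against the control siRNA (left, IMR-90; middle, SK-MEL-103) and with compounds against DMSO (right, IMR-90); lines are 95% intervals and filled points have an edgeR adjusted p below 0.05. Filled points are PLAU with siMFN1 (-1.20) and PLAU and PLAT with siMFN1+2 (-1.24 and -1.27) in IMR-90.

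The compounds left the 5 genes within the spread of the libraries. No gene at all was called with edgeR for MFI8 against DMSO, BI against DMSO or MFI8 against BI (0% of 19056 tested in each, with 371, 175 and 326 at an unadjusted p below 0.05, none of them a member), so the count of 0 members is the count of the whole table. DESeq2 called 1 gene for MFI8 against DMSO, no gene in the other 2 comparisons, and no member. PLAU was at 2228, 817 and 1989 CPM in doxorubicin-treated DMSO libraries 1, 2 and 3, at 1999, 1007 and 1839 with MFI8 and at 2236, 762 and 2047 with BI. SERPINE2 was at 535, 254 and 576 CPM in DMSO, 503, 326 and 552 with MFI8 and 508, 257 and 551 with BI. In all 3 treated groups library 2 was the lowest for both genes, and the 3 groups repeated each other. PLAT was at 1278, 1439 and 935 CPM in DMSO, 1141, 1294 and 892 with MFI8 and 1316, 1702 and 917 with BI, with library 3 lowest each time.

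For each compound the change is given with its interval, since a missed threshold does not show equality. With MFI8 PLAU changed by -0.05 (95% interval -1.14 to 1.03), PLAT by -0.13 (-0.77 to 0.51), PLAUR by 0.14 (-0.25 to 0.53), SERPINE2 by 0.02 (-0.75 to 0.78) and SERPINB2 by 0.47 (-0.65 to 1.59) on the log2 scale. With BI the changes were 0.00 (-1.08 to 1.09), 0.11 (-0.54 to 0.75), -0.19 (-0.58 to 0.20), -0.05 (-0.82 to 0.71) and -0.49 (-1.61 to 0.64). Every adjusted p was 1.00. SERPINB2 showed the widest gap between the compounds, which were given at different doses and are set side by side here: 138, 96.8 and 80.4 CPM with MFI8, 86.6, 22.9 and 52.3 with BI, and 116, 46.0 and 65.7 in DMSO. In each of the 3 numbers MFI8 was highest and BI lowest. With the replicate number as a block in the 6 libraries alone, BI against DMSO called SERPINB2 (-0.57, adjusted p = 1.45e-06) and PLAUR (-0.19, adjusted p = 0.0168), where 3.84% of all genes were called. The block with all groups in the fit called neither, and MFI8 called no member in either blocked fit.

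Ranked by mean level over the 16 groups, most neighbours could not be told apart. For PLAUR, SERPINE2 and SERPINB2 each group overlapped the next in all 15 neighbouring pairs. PLAU had 1 gap, between IMR-90 with siMFN1+2 (460.4 to 897 CPM) and SK-MEL-103 with siMFN1 (22.1 to 28.6 CPM), which divides the lines. PLAT had 2 gaps: between SK-MEL-103 with siMFN1+2 (812 to 939 CPM) and IMR-90 with siMFN2 (615 to 755), and between IMR-90 with siMFN1+2 (517 to 589.5) and proliferating IMR-90 (203 to 433). For PLAT the top tier thus held every doxorubicin-treated SK-MEL-103 group, and doxorubicin-treated IMR-90 with the control siRNA, DMSO, MFI8 or BI. Next came doxorubicin-treated IMR-90 with siMFN1, siMFN2, siMFN1+2 or siMAVS, and last the 3 proliferating groups.

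Genes with the most similar pattern were sought among 10921 genes averaging 2 or more in log2 CPM, by Pearson's r over the 16 group means, in log2 CPM centred within each experiment. The points share libraries, depth and the large doxorubicin contrast, so r is a description. For PLAT these were HLA-E (0.987), OPTN (0.986) and MUC1 (0.982). For SERPINE2 they were ABLIM3 (0.958), EXT2 (0.956) and GDF15 (0.956), and for PLAUR SMIM8 (0.942), PDIA4 (0.942) and HSPA5 (0.930). PLAU was matched less closely, by APMAP (0.886), NFKBIE (0.871) and CITED4 (0.849), and SERPINB2 least, by ABCC9 (0.76), PID1 (0.746) and RGMB (0.742). Among the members themselves r ran from -0.68 (PLAT and PLAUR) to 0.53 (PLAT and SERPINE2), so the 5 genes did not move as 1 group.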

How the data were processed

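RNA from 48 libraries was prepared with a stranded poly(A) kit, per the labels' protocols. The deposited values are raw read counts for each Ensembl gene, made with Trim Galore 0.6.7, STAR 2.7.10a and featureCounts on GRCh38, per the submitters' processing notes. The annotation and the strand setting of the counting are not given in the sources used here. Reads carried no molecular identifiers that the labels mention.

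Each experiment was fitted with all its groups in edgeR 4.0.16 (R 4.3.3, limma 3.58.1, data.table package 1.17.8) by the quasi-likelihood test, after filterByExpr and TMM scaling, without a replicate block. Differences between lines were fitted over the 36 siRNA libraries. P-values were adjusted by the Benjamini-Hochberg method over all genes tested, and genes with an adjusted p below 0.05 were called. The fits covered 19077 (IMR-90 siRNA), 17945 (SK-MEL-103), 19056 (compounds) and 20892 genes (both lines). Intervals are at 95%. The members, the 6 pathway lists and the tests were chosen with earlier results of these data known. The genes named are the members, the siRNA targets, up to 4 highest and 4 lowest called genes per pathway list, and the 3 genes most like each member, of group means of log2 CPM with a prior count of 2. One gene of the lists is counted but not reported by name here. The script was tested on simulated data.

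Same-numbered libraries deviated together (every r above 0.1) in 10 of 14 comparisons. The exceptions were doxorubicin against proliferating cells in each of the 3 experiments and siMAVS in IMR-90. No 2 libraries of a group agreed within sampling noise: over 48 pairs, chi-square divided by its degrees of freedom was at least 11.1. Alternatives were RLE size factors, no filter, the replicate block, the libraries of a comparison alone, a term for the range of the description numbers, DESeq2 1.42.0, and each library left out. The earlier quasi-likelihood method of edgeR, and leaving out all compound libraries numbered 2, were chosen after seeing the data.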

Additional observations from a re-analysis of the deposited data

Results flagged for a closer look

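The doxorubicin effect differed between the lines for 2 of the 5 genes, by the test of the difference in 1 edgeR fit over both lines. In that test 22.2% of all genes were called, and line and experiment cannot be told apart. For SERPINE2, the protease nexin-1 gene, the melanoma change less the fibroblast change was -2.76 on the log2 scale (SE 0.38, adjusted p = 7.7e-06), with a rise in IMR-90 (2.14) and a fall in SK-MEL-103 (-0.72). For PLAUR, the urokinase receptor gene, it was -1.28 (SE 0.44, adjusted p = 0.0348), with a fall in SK-MEL-103 (-1.30) beside 0.08 in IMR-90. SERPINE2 was called in all 12 fits with 1 library left out, and PLAUR in 4 of 12. In the separate IMR-90 experiment on day 9, PLAUR changed by -0.34 (edgeR adjusted p = 0.121).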

How the results depend on the processing

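Of 1490 alternative log2 changes of the members, 1414 kept their side of the threshold, 40 lost the call and 36 gained it. No called value changed sign, while some values that were not called did, such as SERPINB2 with doxorubicin in IMR-90 on day 7, which kept its sign in 3 of 6 fits with 1 library left out. Members called with siMFN1 in IMR-90 (1) came to 0 with no filter, 0 with the earlier quasi-likelihood method, 0 with the 6 libraries alone and 3 with DESeq2. With siMFN1+2 (2) the count was 1 with the earlier method, 0 with the 6 libraries alone, 3 with DESeq2 and 3 with the description-number term. With siMAVS (0) it was 1 with the description-number term and 1 with DESeq2. For the doxorubicin difference between lines (2) it was 1 with no filter, where PLAUR missed (-1.23, adjusted p = 0.053), and for the siMFN1 difference (0) it was 1 with DESeq2. For these counts, and those with 1 library left out below, the share of all genes called by each fit is not given. A higher count therefore does not set the members apart.

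The replicate block with all groups moved 2 counts: that of the siMFN1 difference between lines from 0 to 1, and that of doxorubicin in IMR-90 on day 9 from 2 to 3. The block with the libraries of the comparison alone gave 3 (siMFN1), 2 (siMFN2) and 4 (siMFN1+2) in IMR-90, 3, 4 and 3 in SK-MEL-103, and 2 with BI. Where the numbers did not pair the libraries, the block ended the PLAU call in IMR-90 on day 7 (0.85, adjusted p = 0.0923) with the libraries alone, and PLAUR on day 9 was called (-0.35, adjusted p = 0.0116, all groups; -0.29, adjusted p = 0.0464, libraries alone).

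With 1 library left out the counts ranged from 0 to 1 (siMFN1), 0 to 2 (siMFN1+2) and 0 to 1 (siMAVS) in IMR-90, from 2 to 3 and 2 to 4 for doxorubicin in IMR-90 on day 7 and SK-MEL-103, and from 1 to 2 for the doxorubicin difference between lines. Without the compound libraries numbered 2, PLAUR on day 9 was called (-0.42, adjusted p = 0.0073). SERPINB2 between doxorubicin-treated lines was called with RLE factors (-1.02, adjusted p = 0.0447) and DESeq2 (-1.03, adjusted p = 0.0336). The causes were not tested.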
